A study of Mus musculus with 8 samples.

Results

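The mast cell genes examined here are 9 genes chosen by name: the granule protease genes Cpa3, Mcpt4, Cma1 and Tpsb2, the receptor genes Kit, Fcer1a and Ms4a2, the growth factor gene Kitl, and Hdc, which encodes the enzyme that makes histamine. Of these 9 genes, 8 were matched among the 20681 genes of the expression table, and Ms4a2 is not analysed here. Poly-A RNA was sequenced from 8 samples of mouse knee joint, in groups of 4 that the titles call control and knockout, at 13991000 to 17411617 reads assigned to genes per library. Per the series text, the mice carried Acan-Cre, a recombinase driven by the aggrecan gene of cartilage cells, and floxed Loxl2 alleles, the control samples were vehicle-treated, and any agent given to the knockout samples is not given in the sources used here. The library names call the control samples LOXL2wt and the others LOXL2ko, and all 8 carry DMM, a term that usually denotes surgical destabilisation of the medial meniscus. Age, sex and time after surgery are not given in the sources used here, nor whether each library came from a separate animal, so p-values measure the spread between these libraries only.

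Mast cells are tissue-resident immune cells that store proteases and histamine in granules and release them when the high-affinity IgE receptor is crosslinked. Their survival in tissue depends on KIT, a receptor tyrosine kinase, and on its ligand, stem cell factor, which is encoded by Kitl and made by stromal cells. In mice, mast cells of connective tissue, the synovium among them, are known for chymases such as those of Mcpt4 and Cma1, tryptase from Tpsb2, and carboxypeptidase A3 from Cpa3.

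The labels and libraries were checked first. Loxl2, the targeted gene (chromosome 14, 69609068 to 69695834, mm10), went against its label, with a mean of 519 ± 411 normalised reads among controls and 1210 ± 329 in the knockout-labelled group (SD, n = 4 each; limma log2 difference 1.44, adjusted p = 0.0294). The groups overlapped, since control replicate 3 had 1135 and knockout replicates 1 and 3 had 893 and 960 (exact permutation p = 0.0857). The call was lost in 8 of 18 alternatives, among them edgeR (adjusted p = 0.0669), DESeq2 (0.0659), the replicate block (limma adjusted p = 0.0513) and the omission of control replicate 1 (0.0666), 2 (0.0798) or 4 (0.0767) or of knockout replicate 2 (0.0745) or 4 (0.0849). Its mean was higher in all 18. Acan-Cre is driven by a gene of cartilage cells, while these reads come from all cells of each sample. Total Loxl2 reads therefore cannot settle whether the labels are right, and groups are called by their labels throughout. A normalised read count is the number of reads of a gene divided by the size factor of its library. Of a chondrocyte list, 12 of 12 genes had values and passed the filter below, as did 10 of 10 endothelial and 13 of 13 neutrophil genes. Passing the filter therefore does not check the tissue label. The libraries also held much skeletal muscle RNA. A gene was tested where it had at least 10 normalised reads in at least 4 of the 8 libraries, and it was called at an adjusted p under 0.05 over all 14949 genes tested. Of these, 11.6% were called higher in the knockout-labelled libraries and 11.6% lower, together 23.2%. With each library rescaled after the 50 highest genes and those of the muscle, erythroid and neutrophil lists were set aside, 77.7% of the calls were higher against 50% as deposited, and the median over all tested genes went from 0.00 to 0.15.

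The 4 granule protease genes had higher means in the knockout-labelled group. Cpa3 was below the filter and was not tested. Of the others Mcpt4 alone was called, where 11.6% of all tested genes were called higher. Their ratios of group means were 3.59 for Cpa3, 3.0 for Mcpt4, 2.50 for Cma1 and 2.41 for Tpsb2. Kit, Kitl, Hdc and Fcer1a differed by less, with ratios of 1.28, 1.16, 1.1 and 1.63. Kit and Kitl were tested and not called, and Hdc and Fcer1a were below the filter. All the protease genes were low, at 2 to 56 reads per library. In a bulk sample, more mast cells and more RNA per mast cell cannot be told apart.

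Promoter sequences are shown for Cpa3, Mcpt4 and Cma1, the protease genes for which the RefSeq table (build GRCm38.p6) held one and whose values moved in the same direction. Tpsb2 had no entry in it. Each sequence is the 250 bases before the annotated start, 5′ to 3′ on the strand of the gene, which is the minus strand for all 3, and the capitals mark a GATA site. The windows are chr3:20242182-20242431, chr14:56062311-56062560 and chr14:55944676-55944925.
Cpa3: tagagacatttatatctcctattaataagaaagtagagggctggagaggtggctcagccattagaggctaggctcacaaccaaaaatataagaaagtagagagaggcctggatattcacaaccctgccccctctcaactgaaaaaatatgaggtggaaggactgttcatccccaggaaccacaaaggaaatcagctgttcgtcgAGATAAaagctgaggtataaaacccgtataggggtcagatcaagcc
Mcpt4: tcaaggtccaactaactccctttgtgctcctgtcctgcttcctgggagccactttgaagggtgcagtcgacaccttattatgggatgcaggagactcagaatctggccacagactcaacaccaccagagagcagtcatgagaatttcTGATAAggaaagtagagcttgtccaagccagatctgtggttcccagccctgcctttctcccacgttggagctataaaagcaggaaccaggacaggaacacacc
Cma1: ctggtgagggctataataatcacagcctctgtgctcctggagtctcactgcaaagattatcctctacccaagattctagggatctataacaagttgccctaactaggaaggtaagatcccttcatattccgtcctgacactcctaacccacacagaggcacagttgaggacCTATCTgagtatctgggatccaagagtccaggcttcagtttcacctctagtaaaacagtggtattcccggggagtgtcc
GATA sites, the kind of sequence read by GATA factors of blood cells, were searched on both strands in 4 spellings. The first was AGATAA, another with a different opening base was TGATAA, another with a different closing base was AGATAG, and the last with both changes was TGATAG. Cpa3 has AGATAA from 46 to 41 bases before its start, and Mcpt4 has TGATAA from 103 to 98 bases before. Cma1 has AGATAG on the opposite strand from 79 to 74 bases before its start. Of the 8 mast cell genes with an entry, 6 held at least 1 such site, namely Fcer1a, Hdc and Ms4a2 beside these 3, while Kit and Kitl held none, and 26.5% of all 32851 promoter windows of this length held 1. The E-box CANNTG, which equals its own reverse complement, was found in 4 of the 8 genes and in 66.2% of all windows. Its form CACATG, searched on both strands, was found in 1 of the 8, Fcer1a, and in 12.3% of all windows. A match describes letters only.

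Mcpt4 encodes mouse mast cell protease 4, a chymase that cleaves fibronectin and other matrix proteins. It lies on chromosome 14 from 56059629 to 56062313 on the minus strand, with no other annotated gene overlapping it. Its normalised read count was 19.5, 10.1, 17.8 and 3.29 across the control libraries, by replicate number, and 36.9, 47.9, 38.1 and 29.0 across the knockout-labelled ones. Every library labelled knockout lay above every control library, a pattern that 11.7% of tested genes showed in this direction and 13.4% in the other. Means were 12.7 ± 7.46 and 38.0 ± 7.73 (SD, n = 4 each), a log2 difference of 1.72 ± 0.48 (SE), with a 95% interval from 0.65 to 2.79 (limma adjusted p = 0.0293). The exact two-sided permutation test over the 70 assignments of libraries gave p = 0.0286, the smallest that this design allows. The call was lost without control replicate 2 (limma adjusted p = 0.0694), knockout replicate 1 (0.0617), knockout replicate 2 (0.0759) or knockout replicate 4 (0.0583), and under quantile normalisation (0.0547). edgeR (adjusted p = 0.0311) and DESeq2 (adjusted p = 0.00415) on recovered reads gave the call as well, and over 18 alternatives the difference stayed between 1.24 and 2.0.

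Cpa3 encodes carboxypeptidase A3, an exopeptidase of the granule. It lies on chromosome 3 from 20215620 to 20242181 on the minus strand, where the annotation also places Mir7007 on the same strand. It had 5.41, 2.02, 6.54 and 3.29 normalised reads in the control libraries and 20.9, 15.4, 18.5 and 7.04 in those labelled knockout, in the order of the replicates. The groups did not overlap, although knockout replicate 4 stood only slightly above control replicate 3. These values rest on 17 reads in all 4 control libraries and 64 in the 4 others. Cpa3 reached 10 in only 3 libraries, all labelled knockout, and so was not among the genes tested. In the fit without a filter its log2 difference was 1.62 ± 0.48 (SE; limma adjusted p = 0.0424), where 7.99% of 20681 genes were called higher. The exact permutation test gave p = 0.0286, and groups that did not overlap in this direction made up 9.51% of all genes of the table.

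Tpsb2 encodes the tryptase mouse mast cell protease 6 and spans positions 25366305 to 25369098 of chromosome 17, plus strand. Near-identical tryptase genes exist beside it, among them Tpsab1, and reads could have been split or lost between such copies. Its normalised read count was 22.7, 8.08, 16.8 and 3.29 in the control libraries and 43.9, 30.8, 29.4 and 18.5 in those labelled knockout. The groups overlapped at 1 point, since control replicate 1 exceeded knockout replicate 4. The log2 difference was 1.42 ± 0.53 (SE), with a 95% interval from 0.24 to 2.60, and it was not called (limma adjusted p = 0.0784, exact permutation p = 0.0571). Without control replicate 1 it was called, with a difference of 1.78 (limma adjusted p = 0.0426).

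Cma1 encodes the chymase mouse mast cell protease 5. It lies 0.115 Mb from Mcpt4 on chromosome 14, from 55941451 to 55944675 on the minus strand, and Mcpt4 lies 13.5 Mb from Loxl2. Cma1 had 15.1, 11.1, 7.48 and 3.29 normalised reads in the control libraries and 34.9, 34.2, 12.0 and 11.4 in those labelled knockout. Knockout replicates 1 and 2 were high, while knockout replicates 3 and 4 lay among the control values. The log2 difference was 1.21 ± 0.54 (SE), with a 95% interval from 0.00 to 2.42 (limma adjusted p = 0.129, exact permutation p = 0.114). Its difference was 0.84 without control replicate 4, where its value rested on 3 reads.

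**Figure D1:**
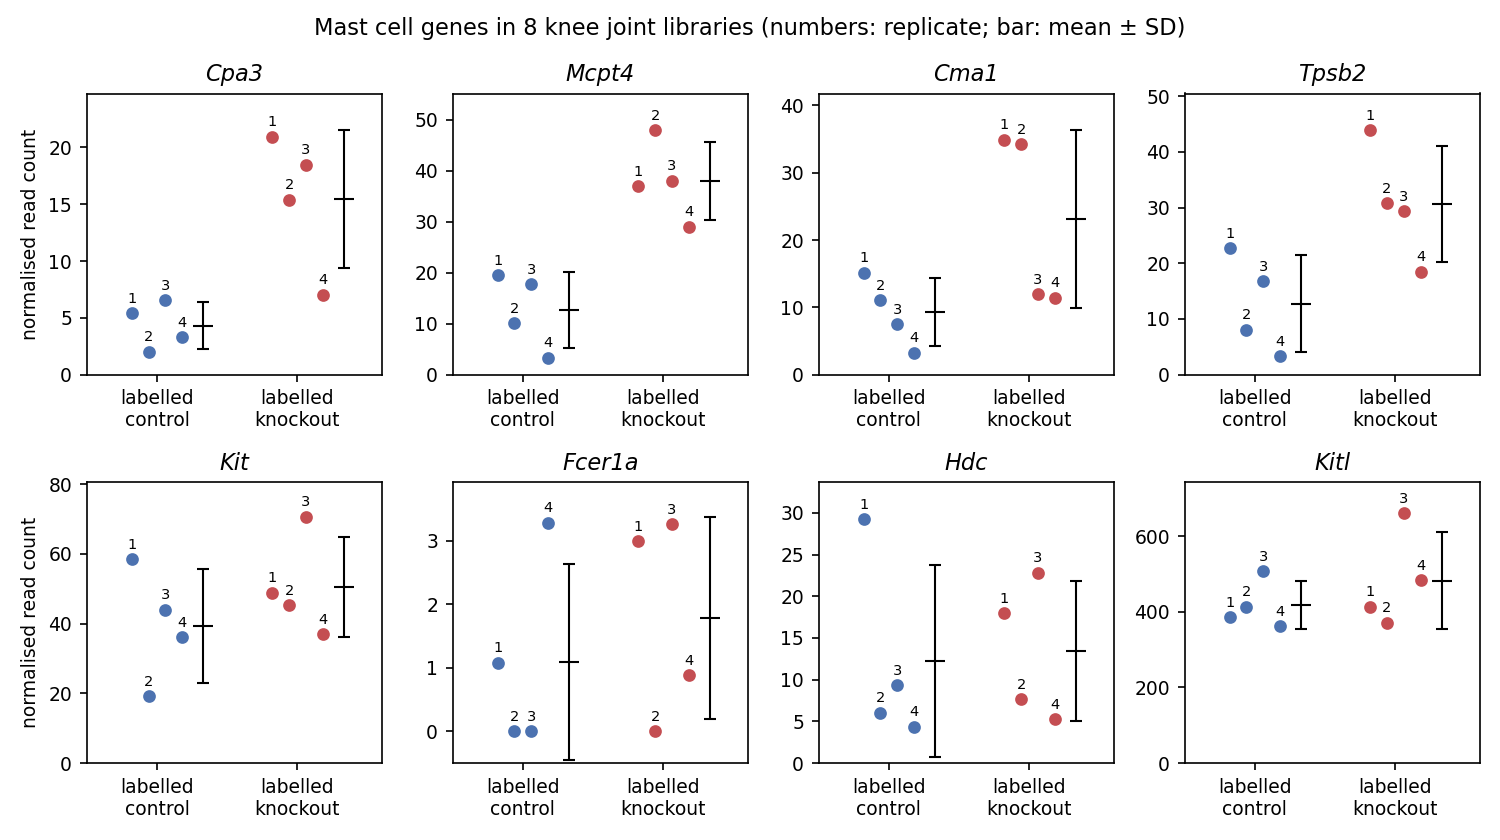
Normalised read count (vertical axis, linear, a separate scale for each gene) of 8 mast cell genes in the 4 libraries labelled control (blue) and the 4 labelled knockout (red), numbered by replicate, with the mean and SD of each group in black. The groups are separate for Cpa3 and Mcpt4 and overlap for the other 6 genes.

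Control replicate 4 had 3 reads of each of the 4 protease genes, for which the exact 95% Poisson interval, which covers counting error only, runs from 0.619 to 8.77 reads. Added over the 4 genes, the control libraries held 58, 31, 52 and 12 reads in the order of the replicates, and those labelled knockout held 137, 150, 90 and 75. All the sums of the knockout-labelled libraries were above all those of the controls. These sums are not adjusted for library size. In normalised reads the groups stayed separate but narrowly, with control replicate 1 at 62.7 and knockout replicate 4 at 66.0. Among single tested genes, 11.7% were separate in this direction. Pooled over each group, the makeup of the protease reads was similar. Mcpt4 gave 32.7% of 153 reads among controls and 35.6% of 452 in the knockout-labelled group, and Tpsb2 gave 32.7% and 28.3%. Cma1 gave 23.5% and 21.9%, and Cpa3 11.1% and 14.2%. Single libraries varied more, from 25% to 44% for Mcpt4 and from 24% to 36.2% for Tpsb2. Cma1 ran from 12.2% to 35.5% and Cpa3 from 6.45% to 25%. These shares are given with no test.

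**Figure D2:**
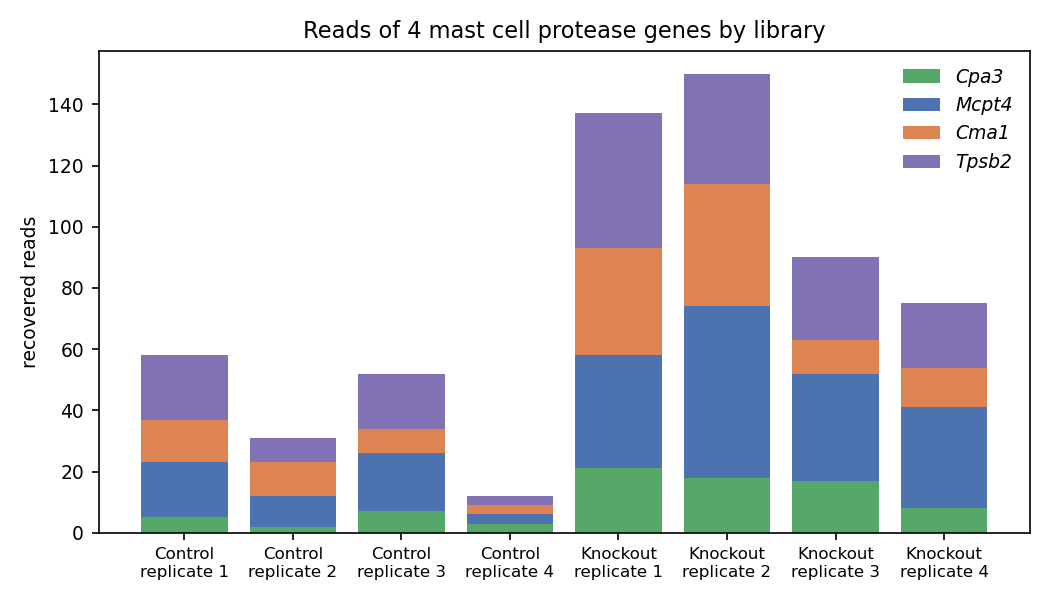
Recovered whole reads (vertical axis) of Cpa3, Mcpt4, Cma1 and Tpsb2, stacked for each of the 8 libraries. The lowest stack is control replicate 4 with 12 reads and the highest is knockout replicate 2 with 150.

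Among the receptors, Kit (chromosome 5, 75574916 to 75656722, plus strand) is shared by mast cells, blood progenitors and melanocytes. Its normalised read count was 58.4, 19.2, 43.9 and 36.1 in the control libraries and 48.9, 45.3, 70.7 and 37.0 in those labelled knockout. The groups overlapped widely, and the log2 difference was 0.41 ± 0.34 (SE), with a 95% interval from -0.36 to 1.18 (limma adjusted p = 0.409, exact permutation p = 0.314). The interval includes 0 and overlaps that of Mcpt4. Taken as the log2 ratio of Mcpt4 to Kit in each library, the mean was -1.69 ± 0.99 among controls and -0.38 ± 0.39 in the knockout-labelled group (SD, n = 4 each; exact permutation p = 0.0571, adjusted over the 3 ratios of Mcpt4 examined 0.171). Fcer1a (chromosome 1, 173221284 to 173227214, minus strand), which encodes the IgE-binding chain of the high-affinity receptor, was near 0 everywhere. It had 1, 0, 0 and 3 reads in the control libraries and 3, 0, 3 and 1 in those labelled knockout, and a difference was not detectable at this depth (exact permutation p = 0.743).

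The growth factor gene Kitl (chromosome 10, 100015630 to 100100416, plus strand) had 386, 414, 507 and 361 normalised reads in the control libraries and 414, 371, 660 and 484 in those labelled knockout. Knockout replicate 3 was the highest of all, and the other 3 libraries of that group lay within the control range. The log2 difference was 0.19 ± 0.18 (SE), with a 95% interval from -0.21 to 0.58 (limma adjusted p = 0.477, exact permutation p = 0.457). Without knockout replicate 3 the difference was 0.02.

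Hdc (chromosome 2, 126593667 to 126619299, minus strand) encodes histidine decarboxylase, which basophils and immature myeloid cells also express. It had 29.2, 6.06, 9.35 and 4.38 normalised reads in the control libraries and 18, 7.70, 22.8 and 5.28 in those labelled knockout, and was below the filter. Control replicate 1 was the highest library, and the groups overlapped throughout (log2 difference 0.26 in the fit without a filter, limma adjusted p = 0.818, exact permutation p = 0.80). In control replicate 1 the neutrophil list summed to 9953 normalised reads, against 1830 to 3718 in the other control libraries. In those labelled knockout it summed to 11198, 3889, 6610 and 7036, in the order of the replicates. The part of neutrophils in the Hdc values was not tested.

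**Figure D3:**
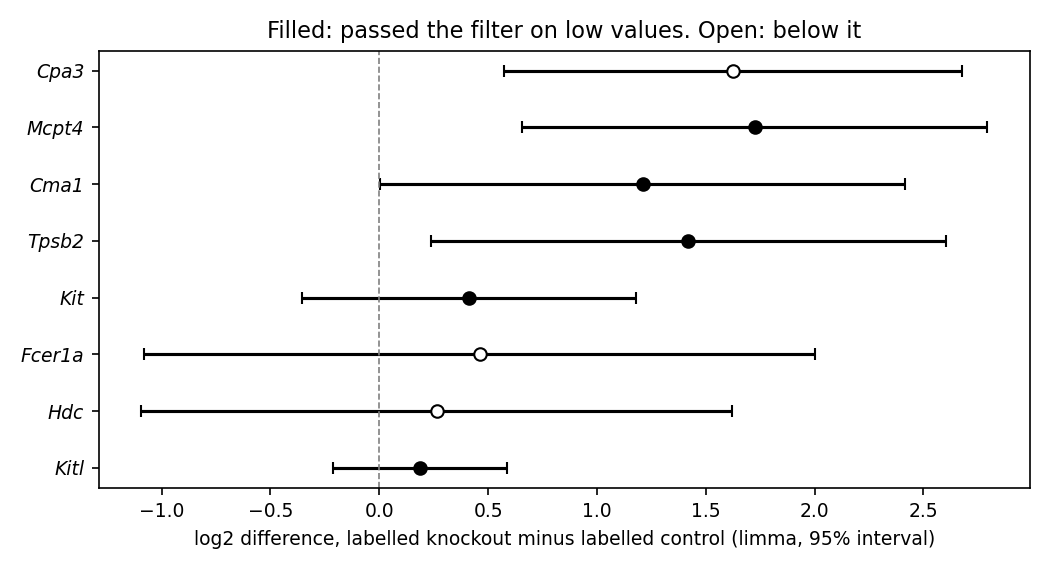
Log2 difference of the knockout-labelled libraries from those labelled control (horizontal axis), with the 95% interval of the limma fit, for 8 mast cell genes. Filled points are the 5 genes tested, open points the 3 genes below the filter, taken from the fit without one. These intervals are not adjusted for the number of genes. Those of the 4 protease genes lie above 0, that of Cma1 from 0.00, and the other 4 include 0. Over all tested genes, 38.4% had an unadjusted limma p under 0.05 in either direction. Of the 5 genes tested, Mcpt4 alone was called after adjustment.

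Levels were compared between genes as normalised reads per kilobase of merged exons. In the control group Kitl was the highest at 70.5 ± 10.7, followed by Mcpt4 at 11.4 ± 6.73, Cma1 at 8.49 ± 4.64 and Tpsb2 at 7.98 ± 5.46 (SD, n = 4 each). Kit stood at 4.42 ± 1.83, Cpa3 at 2.84 ± 1.34, Hdc at 1.92 ± 1.80 and Fcer1a at 1.09 ± 1.55. Only Kitl was set apart from its neighbour by more than the spread. In the knockout-labelled group the order was Kitl at 81.6 ± 21.5, Mcpt4 at 34.3 ± 6.98, Cma1 at 21.2 ± 12.1, Tpsb2 at 19.2 ± 6.53, Cpa3 at 10.2 ± 3.99, Kit at 5.66 ± 1.61, Hdc at 2.10 ± 1.30 and Fcer1a at 1.79 ± 1.6. Cpa3 and Kit changed places, though their SDs overlapped in each group. The SDs of Mcpt4 and Cma1, of Cma1 and Tpsb2, and of Tpsb2 and Cpa3 also overlapped in the knockout-labelled group.

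Of the 5 mast cell genes tested, 1 (Mcpt4) was called, against a background of 11.6% of all tested genes called higher. Among the 3181 tested genes with a mean of 10 to 50 normalised reads, the range of Mcpt4, Cma1, Tpsb2 and Kit, 8.17% were called higher, and their median standard error was 0.38 against 0.17 over all genes. The median log2 difference of the 5 genes was 1.21, beside 0.20 over the genes of this range and 0.00 over all genes tested. With 5 genes, a count of 1 does not stand apart from that background. The median of 1.21 depends on the filter. Mcpt4, Cma1 and Tpsb2 reached 10 normalised reads in 3, 2 and 2 control libraries and in 4 knockout-labelled ones each. They thus passed only with the group where they were high. Cpa3, Hdc and Fcer1a, which did not pass, had differences of 1.62, 0.26 and 0.46 in the fit without a filter.

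Of 23 further genes of mast cells, 13 had values and 11 were tested. Of these, 2 were called higher and 1 lower, a share near the 23.2% called over all tested genes, with a median log2 difference of -0.08. Srgn, the serglycin core protein on which granule proteases are packed, rose by 1.01 (limma adjusted p = 0.0201), and Ndst2, a heparin sulfotransferase, by 0.41 (0.0216), while Maob, monoamine oxidase B, fell by 0.62 (0.0127). Each of these is also expressed in other cells of a joint. The limma call of Srgn was lost without control replicate 2 (adjusted p = 0.0568), and that of Ndst2 in 5 of 18 alternatives (adjusted p up to 0.0619). Of the 11 tested genes 5 were higher, and 8 were not called. Those not called were Hpgds (1.35), Il1rl1 (0.69), Mitf (0.01), Slc6a4 (-0.08), Gata2 (-0.12), Slc18a2 (-0.15), Ctsg (-0.29) and Tph1 (-0.68). Mrgprb2 and Mrgprb1, receptor genes used as markers of connective tissue mast cells, reached at most 3.29 and 4.33 normalised reads. The basophil markers Mcpt8 and Prss34 had 0 to 7.67 and 0 to 17.5 normalised reads, both with values of 0 in some libraries, and neither was tested. Of the melanocyte list only Dct and Pmel had values, at 0.935 to 16.0 normalised reads.

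Of 17 signalling genes downstream of the IgE receptor 16 were tested, 8 were called higher and 1 lower, with a median log2 difference of 0.81, beside 11.6% called in each direction and a median of 0.00 over all tested genes. Fcer1g, the gamma chain that the IgE receptor shares with Fc receptors of macrophages, had 162, 96.9, 122 and 136 normalised reads in the control libraries and 412, 264, 279 and 374 in those labelled knockout (log2 difference 1.36, limma adjusted p = 0.00429). Lat2, an adaptor, rose by 1.53 (0.0129) and Lyn, a Src-family kinase, by 0.59 (0.0181). The call of Lyn was lost without knockout replicate 4 (limma adjusted p = 0.0539) and under the replicate block (0.0514). Rabgef1, a regulator of receptor trafficking, was the gene that fell, by 0.34 (limma adjusted p = 0.0414), and is named outside the rule because it was the only one. Macrophages express most of these genes, and of the macrophage list 8 of 10 genes were called higher, with summed levels of 1998 to 4154 normalised reads among controls and 6083 to 8228 in the knockout-labelled group. The part of macrophages in these differences was not tested.

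Genes of KIT signalling went in both directions, with 5 of 16 called higher, 2 lower and a median of 0.08. Over all tested genes 11.6% were called in each direction, with a median of 0.00. Socs1, a feedback inhibitor of cytokine receptors and KIT, rose by 2.09 (limma adjusted p = 0.00397) and Cbl, a ubiquitin ligase, by 0.46 (0.0155), while Ptpn11, the phosphatase SHP2, fell by 0.45 (0.0150). The call of Ptpn11 was lost under quantile normalisation (limma adjusted p = 0.0870) and rescaling (0.0592). Of 16 growth and recruitment genes 10 were tested and 5 were called higher, with a median of 0.84, beside the same background of 11.6%. Csf2rb2, a receptor subunit for IL-3, rose by 1.28 (limma adjusted p = 0.00397), Ccr2, a chemokine receptor that monocytes also carry, by 1.99 (0.00556), and Il3ra by 0.89 (0.00569). Of 7 genes of histamine breakdown and reception, 3 were tested, limma, edgeR and DESeq2 called 0, and 0 had an unadjusted limma p under 0.05.

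The differences of the protease genes stood beside those of other cells of the joint. Of the fibroblast list 10 of 12 genes were called higher with a median of 1.67, and those with the lowest p were Postn (3.42), Col5a1 (1.96) and Pdgfrb (0.88), and the macrophage list had a median of 1.23, with the lowest p for C1qb (1.28), Cd68 (1.71) and C1qa (1.18). The skeletal muscle list had 9 of 18 called lower with a median of -0.69, with the lowest p for Ryr1 (-1.04), Casq1 (-0.79) and Pygm (-0.91). The chondrocyte list had 2 of 12 called higher, Col11a1 (2.17) and Hapln1 (1.28), with a median of 0.72. The neutrophil list had 1 of 13 called higher, Mmp9 (2.82), which was its only higher gene, and a median of -0.61. The progenitor list had 1 of 9 tested called higher, Sox4 (1.08), with 4 higher in all and a median of -0.03. The limma call of Hapln1 was lost under the replicate block (adjusted p = 0.0511) and without knockout replicate 4 (0.0513). That of Mmp9 was lost in 7 of 18 alternatives, with edgeR (adjusted p = 0.109), DESeq2 (0.104) and in limma fits that omitted control replicate 2 (0.0854), 3 (0.0619) or 4 (0.0696), or knockout replicate 1 (0.0754) or 4 (0.0830). Of 11 erythroid genes limma and edgeR called 0 and DESeq2 called 1, with 9 at an unadjusted limma p under 0.05 and a median of -1.87. Of 10 endothelial genes limma, edgeR and DESeq2 called 0, with 0 at an unadjusted limma p under 0.05 and a median of -0.13. The log2 ratio of Mcpt4 to the mean of the macrophage list was -4.05 ± 1.28 among controls and -3.53 ± 0.45 in the knockout-labelled group, a difference of 0.52 (exact permutation p = 0.714). To the fibroblast list it was -8.04 ± 0.75 and -7.99 ± 0.51, a difference of 0.05 (exact permutation p = 0.943), and adjusted over the 3 ratios both p-values were 0.943. These ratios were chosen after the values were seen.

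**Figure D4:**
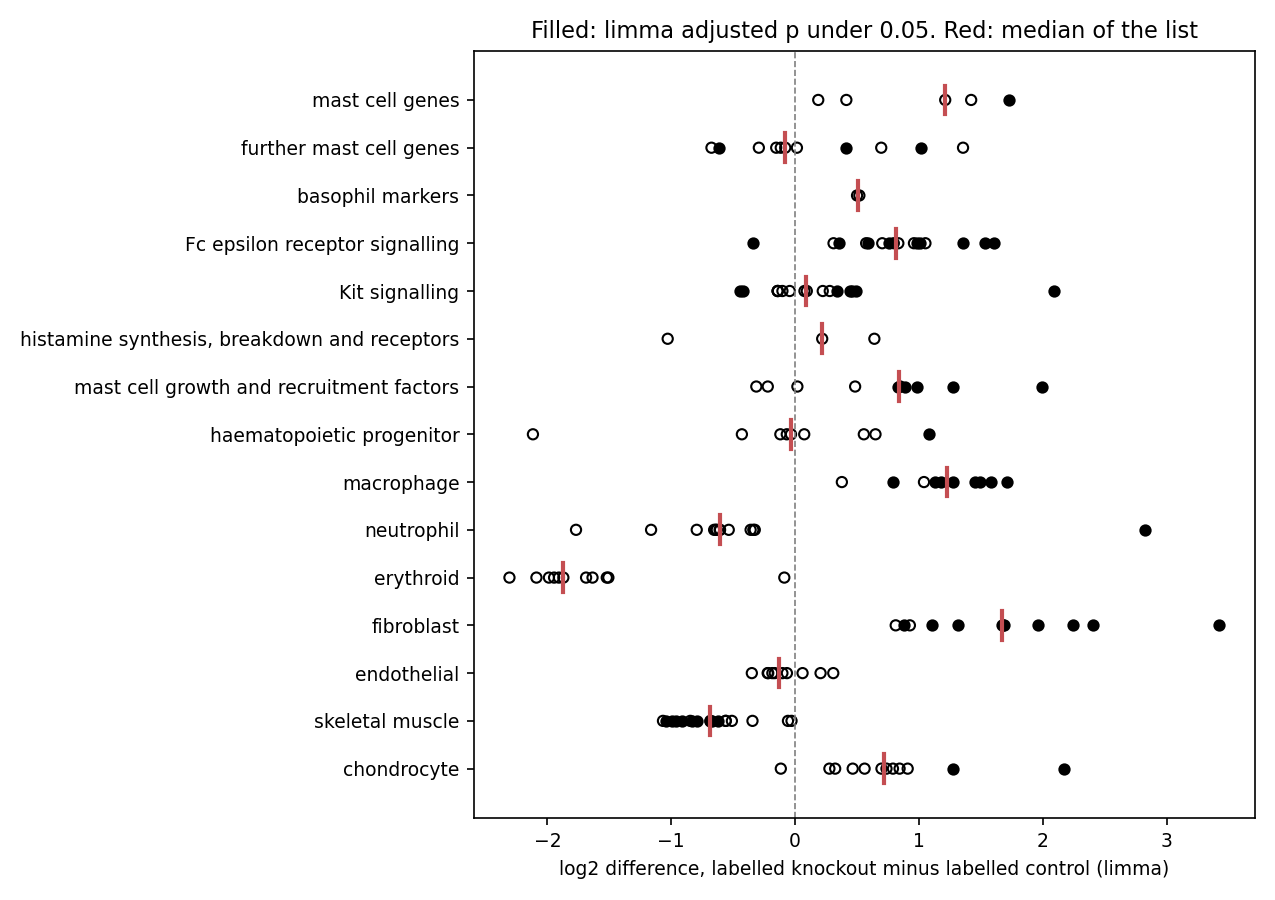
Log2 difference of the knockout-labelled libraries from those labelled control (horizontal axis) for each tested gene of 15 lists, filled where the limma adjusted p was under 0.05, with the median of each list in red. The mast cell genes have a median of 1.21 with 1 filled point, the macrophage list 1.23 with 8 and the fibroblast list 1.67 with 10. The median of 1.21 depends on the filter. Mcpt4, Cma1 and Tpsb2 passed it only with the knockout-labelled group, where they were high. Cpa3, Hdc and Fcer1a did not pass and are not shown.

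The genes whose pattern over the 8 libraries was most like the mean log2 value of Mcpt4, Cma1 and Tpsb2 were sought among all tested genes. After each group's mean was subtracted, these were Zfp729b (r = 0.961), Pdik1l (0.955), Ncam1 (0.946), Galnt9 (0.940) and Fam69c (0.938). Without the subtraction they were Fam69c (0.973), Ncam1 (0.971), Ccdc157 (0.969), Gm266 (0.965) and Arl16 (0.963), with Fam69c and Ncam1 on both lists. Being the highest of 14949 values over 8 libraries, these correlations are a description. Kit had r = 0.322 after the subtraction and 0.497 without it, and Kitl -0.05 and 0.226.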

How the data were processed

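Per the labels' protocols, poly-A RNA was captured from knee joints and sequenced. Per the submitters' processing notes, HISAT2, featureCounts and mm10 were used; versions, annotation and strand setting are not given in the sources used here. The authors deposited a signal per gene, read counts divided by DESeq2 size factors per the series text; 100% of values came out as whole reads (tolerance 0.1) once the factors were recovered, but in control replicate 2 and knockout replicate 1 the factor is so close to 1 that this says little, and the recovery rests on the other 6 libraries. Groups follow the sample titles. The main test was limma 3.58.1 (R 4.3.3) with a mean-variance trend on log2(value + 1), with Benjamini-Hochberg adjustment, and fold changes on this scale understate those of low genes. edgeR 4.0.16 and DESeq2 1.42.0 were run on recovered reads as alternatives, beside other pseudocounts, filters and scalings, a replicate block and each library left out. The fit was tested on simulated data. Same-numbered libraries were not treated as pairs in the main test, and the labels do not say whether they were pairs. Their deviations from the group means correlated at 0.213, -0.12, -0.23 and -0.06. Over so few libraries these correlations cannot settle it. Gene positions are from GENCODE M21. The mast cell genes and all lists were chosen with earlier results of these data known. Named beyond the mast cell genes were up to 3 called genes per list with the lowest p, the 5 most correlated genes, and low markers. The 8 further genes of mast cells that were tested and not called are named as well.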

Additional observations from a re-analysis of the deposited data

Results flagged for a closer look

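Groups of 4 libraries were examined for 34 of the genes named here. In 5 of 68 such groups, 1 library lay far from the other 3, with a gap above Dixon's critical value for 4 samples. Chance flags about 1 in 20 groups. Loxl2 had 1135 normalised reads in control replicate 3 (gap 0.921 of the range). Mmp9 had 3699 in control replicate 1 (0.923) and Col11a1 820.9 in the same library (0.836). Srgn, the granule proteoglycan gene, had 873.3 in knockout replicate 3 (0.849), and Csf2rb2 had 210.4 in knockout replicate 1 (0.838). None of the mast cell genes was flagged in this way.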

How the results depend on the processing

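Mcpt4, Cma1, Tpsb2, Kit and Kitl stayed higher in the group labelled knockout in every alternative that gave them a value, with differences of 1.24 to 2.0, 0.84 to 1.48, 0.95 to 1.78, 0.11 to 0.63 and 0.02 to 0.34. A filter at 20 left Cma1 untested. Of the mast cell genes limma called 1, against 2 without a filter (Cpa3 and Mcpt4), 0 after quantile normalisation (1 at an unadjusted p under 0.05; 1 each by edgeR and DESeq2) and 0 to 2 with single libraries left out. Genes called higher over the whole table were 1732, against 2713 after rescaling, 1117 with the replicate block and 831 to 1840 with single libraries left out. Genes called lower were 1729, against 778, 901 and 913 to 2001. The replicate block left Mcpt4 called (limma adjusted p = 0.0411), and 2 of 8 libraries correlated best with their own number. Pdik1l reversed to -0.065 after quantile normalisation and ranged from -0.052 to 0.322 with single libraries left out (lowest without control replicate 4). Hdc ranged from -0.054 to 0.775, with the sign reversed without control replicate 4 (-0.054) or knockout replicate 3 (-0.045). The cause was not tested. Cpa3 ranged from 1.11 to 1.94. At 2 to 56 reads per library, depth limits what can be said of the protease genes, and at 0 to 3 reads of Fcer1a a difference was not detectable.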
